A study of Mus musculus with 6 samples.

Results

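The genes described here are 10 cytokine genes, taken by name from the deposited expression table: Il1b, Il6, Tnf, Il11, Lif, Osm, Il34, Csf1, Il18 and Il33. Each was present as a single row among 33679 genes. They were measured by mRNA sequencing of mouse kidneys after unilateral ureteral obstruction, a surgical block of 1 ureter after which the kidney above it becomes inflamed and scarred. Both groups had been obstructed. The knockout group was labelled Cd248 KO and the control group wild type, and the labels give no strain, age or day after surgery. Of the 3 samples that the labels name in each group, values for knockout replicate 1 and for all 3 wild type replicates were used, and the other knockout replicates were not analysed here. Wild type values are always given in the order of replicates 1, 2 and 3. A knockout or wild type kidney named below means a library, which need not be a single animal. The labels speak of pooled RNA and do not say that replicates came from separate animals, so the p-values below rest on differences among these libraries alone, which may be technical.

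Cytokines are secreted proteins that carry signals between injured epithelium, leukocytes and stromal cells. IL-1 beta, IL-18 and IL-33 belong to the IL-1 family, whose receptors signal through MyD88 to NF-kappaB, and TNF reaches NF-kappaB through receptors of its own. IL-6, IL-11, LIF and oncostatin M form the IL-6 family, whose receptor complexes share the chain gp130 (encoded by Il6st) and signal through JAK kinases to STAT3. CSF-1 and IL-34 are the ligands of CSF1R, the receptor on which macrophages depend. In the obstructed kidney such cytokines are known to come from tubule cells, macrophages, endothelium and fibroblasts, the last of which include the cells that carry Cd248 (endosialin).

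Expression was given as FPKM, fragments scaled to transcript length and to library size, so levels of different genes can be set beside each other. Differences are given as the knockout value minus the wild type mean on the log2(FPKM + 1) scale, which understates the change of low genes. The FPKM totals of the 4 libraries lay between 267394.4 and 304425.6, and read depth is unknown because the table holds no counts. Cd248 had a listed value of 0 FPKM in the knockout kidney, against 9.03, 9.57 and 8.78 FPKM in the wild type kidneys, in the direction of the labels. Wild type replicate 1 stood apart from the other wild type libraries in proximal tubule markers. Their sum (8 markers) was 1180 FPKM, against 3155 and 4778 FPKM in replicates 2 and 3 and 3887 FPKM in the knockout kidney. Kap alone gave 1006 FPKM of that sum in replicate 1 and 2820 and 4294 FPKM in replicates 2 and 3. In urothelium markers replicate 3 stood apart instead, with 27.7 FPKM against 78.2 and 84.5 FPKM in replicates 1 and 2. Wild type replicate 1 also held the highest wild type value for 9 of the 10 cytokines, where 48.4% of all tested genes had their highest wild type value in it. The differences of the cytokines are therefore given with and without it.

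The most abundant cytokine transcript in the wild type kidneys was Il34, followed by Il33, Csf1, Il1b, Lif, Tnf, Il18, Il11, Il6 and Osm. Wild type means ran from 35.4 FPKM for Il34 to 0.863 FPKM for Osm. The wild type values of Il34 did not overlap those of Il33, nor did those of Il33 overlap those of Csf1, those of Il1b those of Lif, or those of Lif those of Tnf. Csf1 and Il1b overlapped, and so did each neighbouring pair from Tnf down to Osm, so the order within those stretches was not resolved. In the knockout library the first 5 places were taken by the same genes in the same order, Il18 stood above Tnf, and Il6 was the lowest.

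**Figure D1:**
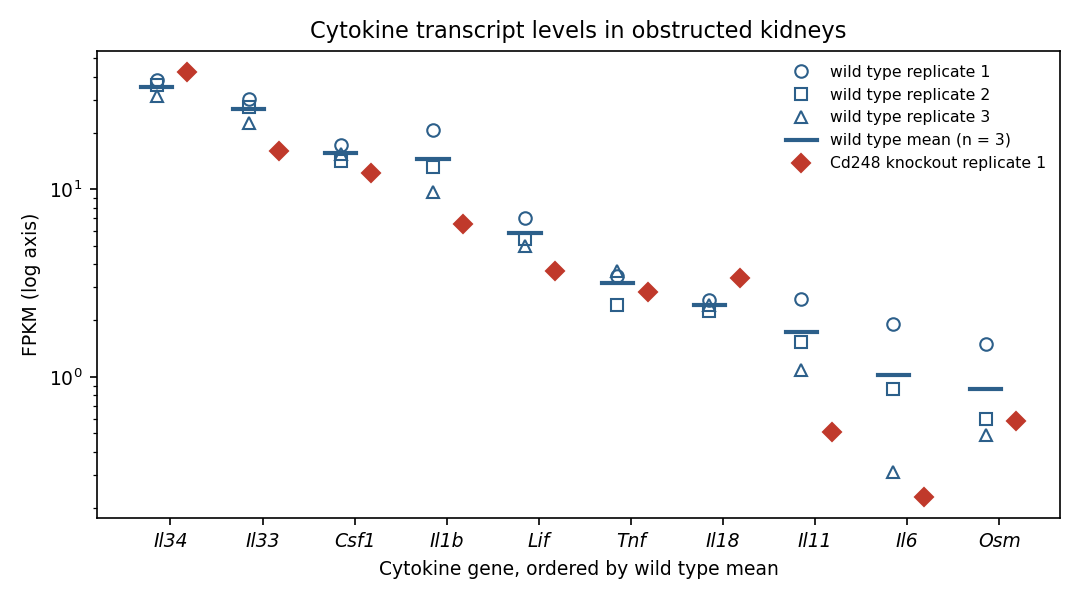
Each cytokine gene on the horizontal axis is plotted with its FPKM on a log axis; open blue symbols are wild type replicates 1, 2 and 3, the bar is their mean, and the red diamond is the knockout library. The diamond lies below all wild type symbols for Il33, Csf1, Il1b, Lif, Il11 and Il6, above them for Il34 and Il18, and among them for Tnf and Osm.

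The knockout library had less transcript of most of these cytokines, and more of Il34 and Il18, but for no single gene was the difference large enough against the wild type spread to pass the test over all genes. The knockout value lay below every wild type library for 6 of the 10 genes, where 31.2% of all tested genes did so, and above every wild type library for 2, where 28.0% of tested genes did so. All 10 genes passed the filter on low values, a mean of at least 0.5 FPKM, and were tested with limma. At an adjusted p under 0.05, 0 of 10 were lower in the knockout library, with 0.0830% of all 16871 tested genes called lower, and 0 of 10 were higher, with 0.640% called higher. At an unadjusted p under 0.05 the count was 3 of 10 (Il33, Il18 and Lif), where 10.8% of tested genes reached it. That count was lower or higher under several alternative settings. The median difference of the 10 genes was -0.43, against -0.01 over all tested genes. Without wild type replicate 1, where Il6 fell under the filter, the median of the 9 genes still tested was -0.26. An exact permutation test of 1 library against 3 cannot give a p below 0.25.

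Among the IL-1 family, the largest difference was that of Il1b, the classic early cytokine of activated macrophages and other myeloid cells. Il1b (ENSMUSG00000027398; GRCm38 chromosome 2, 129364570 to 129371139, minus strand) was at 6.51 FPKM in the knockout kidney, against 20.7, 13.1 and 9.64 FPKM in the wild type kidneys. The knockout library was the lowest of the 4, but the wild type libraries themselves spread 2.15-fold. Its difference was -0.98 (SE 0.41, 95% interval -2.10 to 0.13, limma adjusted p = 0.506), with the knockout value 2.23 times below the wild type mean of 14.5 ± 5.64 FPKM (SD, n = 3). Without wild type replicate 1 the difference was -0.71. An antisense gene, Il1bos, overlaps Il1b and was listed at no more than 0.21 FPKM in any library.

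Il33 encodes an alarmin stored in the nuclei of stromal, endothelial and epithelial cells and released when they are damaged. It lies on chromosome 19 (29925114 to 29960718, plus strand), the chromosome that also carries Cd248, and their distance was not examined. Il33 was at 16.0 FPKM in the knockout kidney, against 30.5, 27.6 and 22.6 FPKM in the wild type kidneys. All wild type values were above the knockout value, and their spread was modest. The difference was -0.71 (SE 0.18, 95% interval -1.20 to -0.22), with the lowest adjusted p of the 10 genes (limma, 0.342), and the fold against the wild type mean of 26.9 ± 3.97 FPKM (SD, n = 3) was 1.69. It was -0.62 without wild type replicate 1. In the authors' deposited table Il33 had a log2 fold change of -0.75 and a q-value of 0.03, the only q-value of at most 0.05 among the 10 genes.

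Il18, a cytokine that tubule epithelium and macrophages make as a precursor and that caspase-1 activates, was higher in the knockout library. Il18 (chromosome 9, 50554827 to 50581840, plus strand) was at 3.37 FPKM there, against 2.56, 2.24 and 2.42 FPKM in the wild type kidneys. The wild type libraries lay close together, with an SD of 0.160 FPKM around 2.41 FPKM (n = 3). The difference was 0.36 (SE 0.11, 95% interval 0.06 to 0.66, limma adjusted p = 0.412), and 0.39 without wild type replicate 1. The start of Il18 overlaps Bco2, a carotenoid-cleaving enzyme gene on the other strand, which was at 2.04 FPKM in the knockout kidney, against 0.97, 1.36 and 1.87 FPKM in wild type. No source used here says whether the counting used strand, so reads of the overlap cannot be told apart. Tex12, which also overlaps Il18, was not analysed here.

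Tnf, the gene of tumour necrosis factor, showed values inside the wild type range. Tnf (chromosome 17, 35199381 to 35202007, minus strand) was at 2.83 FPKM in the knockout kidney, against 3.46, 2.41 and 3.67 FPKM in the wild type kidneys. The difference was -0.11 (SE 0.21, 95% interval -0.69 to 0.47, limma adjusted p = 0.876), -0.06 without wild type replicate 1, and between -0.25 and -0.03 over the fits that left out 1 wild type library. It was the only one of the 10 genes whose highest wild type value was not in replicate 1.

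**Figure D2:**
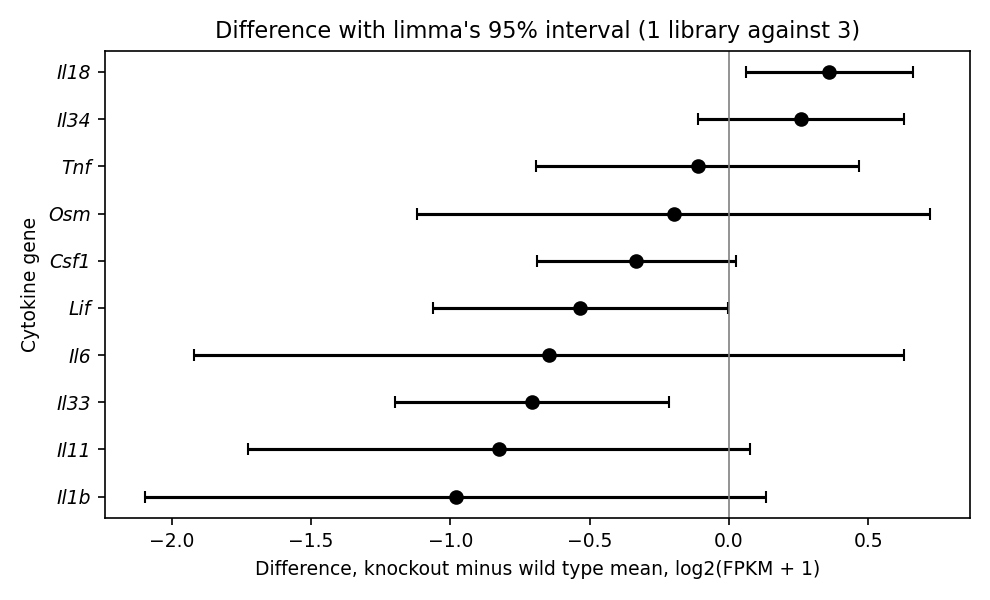
Points give each gene's difference between the knockout kidney and the wild type mean on the log2(FPKM + 1) scale, and bars the 95% interval from limma, whose spread comes from the 3 wild type libraries. Intervals leave out 0 for Il33, Lif and Il18 only, before any adjustment for the number of genes tested.

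Of the 4 IL-6 family members, Il11, Il6 and Osm were the least abundant genes of the set, with wild type values that spread 2.39-fold, 6.19-fold and 3.06-fold. Il11 (chromosome 7, 4772373 to 4782859, minus strand), which stromal cells make in response to TGF-beta, was at 0.51 FPKM in the knockout kidney, against 2.61, 1.54 and 1.09 FPKM in the wild type kidneys. The knockout value lay below every wild type library, 3.43 times under their mean of 1.75 ± 0.78 FPKM (SD, n = 3). The difference was -0.83 (SE 0.33, 95% interval -1.73 to 0.07, limma adjusted p = 0.495). It was -0.61 without wild type replicate 1, and a smaller pseudocount, 0.1 FPKM, gave -1.51.

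Il6 (chromosome 5, 30013114 to 30019981, plus strand), the founding member of the family and the main inducer of acute phase proteins, was at 0.23 FPKM in the knockout kidney, against 1.92, 0.86 and 0.31 FPKM in the wild type kidneys. The knockout value was the lowest, close under that of replicate 3, and the wild type values alone spanned 6.19-fold. The difference was -0.64 (SE 0.47, 95% interval -1.92 to 0.63, limma adjusted p = 0.677), and a smaller pseudocount, 0.1 FPKM, gave -1.49. Without wild type replicate 1, Il6 no longer reached the filter on low values; with no filter its difference from the other wild type libraries was -0.34, an alternative chosen after seeing the data.

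Lif (chromosome 11, 4257557 to 4272514, plus strand), which encodes leukaemia inhibitory factor, was the most abundant of the 4. It was at 3.68 FPKM in the knockout kidney, against 7.07, 5.41 and 5.00 FPKM in the wild type kidneys. All wild type libraries were higher than the knockout library. The difference was -0.53 (SE 0.20, 95% interval -1.06 to -0.0037, limma adjusted p = 0.460), and -0.41 without wild type replicate 1. Osm, the neighbouring gene on chromosome 11 (4236420 to 4241026, plus strand), encodes oncostatin M, a product of myeloid cells. It was at 0.58 FPKM in the knockout kidney, against 1.50, 0.60 and 0.49 FPKM in the wild type kidneys, so the knockout value lay among the lower wild type values. Its difference was -0.20 (SE 0.34, 95% interval -1.12 to 0.72, limma adjusted p = 0.862) and turned to 0.03 without wild type replicate 1, and it was -0.34 when replicate 3 was left out.

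Start-site sequences of the cytokine genes were searched for motifs of factors that act on cytokine genes. RefSeq windows of GRCm38.p6 were found for 8 of the 10 genes, 10 windows in all, and the 250 bases before each start site were searched on both strands. The motifs were AP-1 (TGANTCA, which reads the same on both strands), the NF-kappaB consensus, STAT (TTCNNNGAA) and TEAD (GGAATG). The AP-1 letters occurred in 3 of 10 windows, those of Il6, Il11 and Lif, and in 6.75% of all 32851 windows of the same length. The NF-kappaB consensus occurred in 3 windows, of Il6, Lif and Csf1, and in 7.25% of all windows. STAT letters occurred in 0 of the 10 windows (7.02% of all), and TEAD letters in 2, both of Il33 (12.6% of all). The windows of Il6, Il11 and Lif are printed because they hold the AP-1 letters, a choice made after the search; Il1b, Il33 and Csf1, which were also lowest in the knockout library, hold none. A match is a description of letters, not of a bound site. The sequences below run 5′ to 3′ on the gene's strand up to the last base before the start site, with AP-1 and NF-kappaB matches in capitals.
Il6, chr5:30012864-30013113, plus strand: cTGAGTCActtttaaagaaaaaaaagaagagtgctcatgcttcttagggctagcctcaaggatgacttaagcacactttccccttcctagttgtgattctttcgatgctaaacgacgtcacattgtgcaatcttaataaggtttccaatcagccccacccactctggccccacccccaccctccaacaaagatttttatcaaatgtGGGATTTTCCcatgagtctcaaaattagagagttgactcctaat
Il11, chr7:4778142-4778391, minus strand: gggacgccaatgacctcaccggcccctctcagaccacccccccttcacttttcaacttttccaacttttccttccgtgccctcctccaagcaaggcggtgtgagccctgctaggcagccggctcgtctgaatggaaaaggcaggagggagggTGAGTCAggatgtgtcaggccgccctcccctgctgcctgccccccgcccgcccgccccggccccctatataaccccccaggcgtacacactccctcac
Lif, chr11:4257318-4257567, plus strand: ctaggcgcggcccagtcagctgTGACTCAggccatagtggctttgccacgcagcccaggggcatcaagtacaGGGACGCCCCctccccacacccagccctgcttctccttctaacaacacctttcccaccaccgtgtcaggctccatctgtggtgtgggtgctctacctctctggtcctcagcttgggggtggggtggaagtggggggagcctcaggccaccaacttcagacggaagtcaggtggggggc

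The AP-1 letters begin 249 bases before the start site in Il6, 98 bases before it in Il11 and 228 bases before it in Lif. The NF-kappaB match begins 44 bases before the start site in Il6 and 178 bases before it in Lif. The Il11 window is that of the more downstream of 2 start sites, and the window of the upstream site held neither motif.

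The ligands of CSF1R lay on opposite sides of the wild type range. Csf1 (chromosome 3, 107741048 to 107760469, minus strand), made widely by stromal, endothelial and tubule cells, was at 12.2 FPKM in the knockout kidney, against 17.3, 14.1 and 15.5 FPKM in the wild type kidneys. Every wild type library was above the knockout library. The difference was -0.33 (SE 0.13, 95% interval -0.69 to 0.02, limma adjusted p = 0.489), and -0.26 without wild type replicate 1. Il34 (chromosome 8, 110741829 to 110805924, minus strand), known as a product of injured tubule epithelium, was at 42.3 FPKM in the knockout kidney, against 38.5, 36.1 and 31.5 FPKM in the wild type kidneys. Here the knockout library was the highest. The difference was 0.26 (SE 0.14, 95% interval -0.11 to 0.63, limma adjusted p = 0.582), and 0.32 without wild type replicate 1 and 0.13 once all libraries had the same FPKM total. Gm15895, an antisense gene that overlaps the start of Il34, was at 13.4 FPKM in the knockout kidney, against 8.49, 8.94 and 10.1 FPKM in wild type, and without strand the reads of the overlap cannot be told apart.

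Set together, Csf1 and Il34 summed to 54.5 FPKM in the knockout kidney, against 55.7, 50.2 and 47.0 FPKM in the wild type kidneys, inside the wild type range. The share of Il34 in that sum was 77.7% in the knockout kidney, against 69.0%, 71.9% and 67.0% in wild type. The knockout share was the highest of the 4. Csf1r, their receptor, was at 36.4 FPKM against 40.2, 32.9 and 38.3 FPKM in wild type replicates 1, 2 and 3 (difference -0.02, limma adjusted p = 0.971), with a sign that changed without wild type replicate 1 (0.038) and a value of -0.10 when replicate 2 was left out.

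The gp130 ligands were summed in the same way. Clcf1, another ligand that signals through gp130, was the most abundant of them. It was at 24.1 FPKM in the knockout kidney, against 22.4, 17.0 and 14.8 FPKM in wild type (difference 0.42, limma adjusted p = 0.607). Clcf1 lies on chromosome 19 (4214238 to 4223490, plus strand), as Cd248 does. Il6, Il11, Lif and Osm together came to 5.0 FPKM in the knockout kidney, against 13.1, 8.41 and 6.89 FPKM in the wild type kidneys. With Clcf1, Ctf1, Ctf2 and Cntf added, the sum was 32.9 FPKM in the knockout kidney, against 40.5, 29.9 and 25.6 FPKM in wild type, so the knockout total lay inside the wild type range. Clcf1 made up 73.4% of that sum in the knockout kidney, against 55.3%, 56.8% and 57.9% in wild type. These sums and shares were chosen after the values were seen and carry no test.

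**Figure D3:**
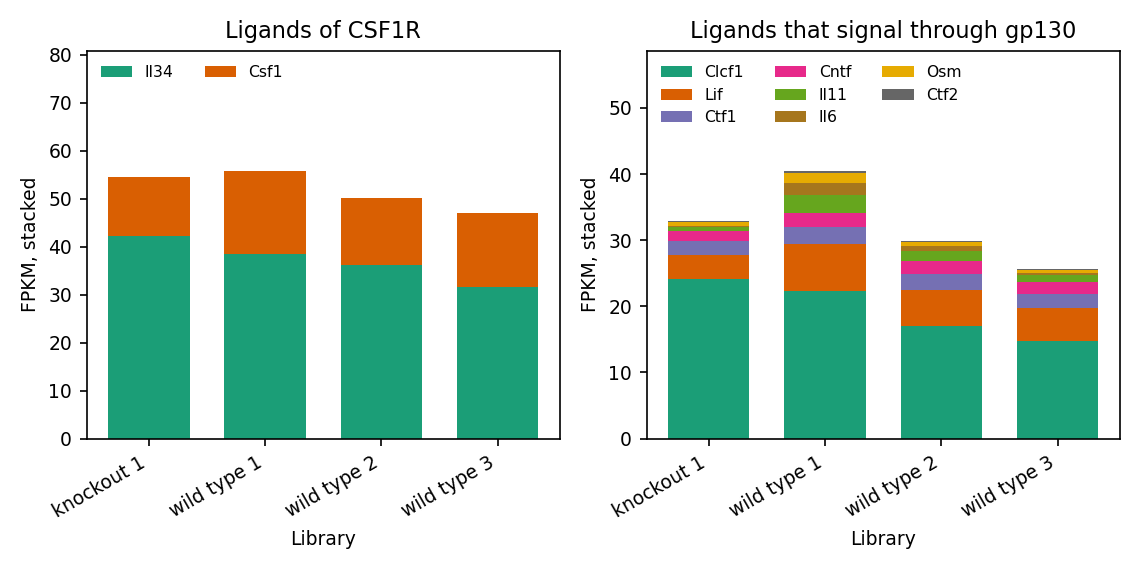
Stacked bars give the FPKM of the 2 ligands of CSF1R (left) and of the ligands that signal through gp130 (right) in each of the 4 libraries. Total heights in the knockout library fall within the range of the wild type libraries, while Il34 and Clcf1 take 77.7% and 73.4% of them, more than in any wild type library.

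The 14 receptor genes of these cytokines were tested as well, and 0 of 14 passed limma's test in either direction. Of them 8 lay below every wild type library and 2 above, 2 had an unadjusted p under 0.05, and their median difference was -0.18, or -0.11 without wild type replicate 1. Over all tested genes 31.2% lay below and 28.0% above every wild type library, and 10.8% had an unadjusted p under 0.05. Il6st, the shared gp130 chain, was at 29.7 FPKM in the knockout kidney, against 43.4, 46.8 and 39.3 FPKM in the wild type kidneys, with no overlap. Its difference was -0.52 (SE 0.13, limma adjusted p = 0.315), the lowest adjusted p among the receptors. Il1r1, the signalling receptor of IL-1, was at 6.36 FPKM against 9.95, 9.66 and 7.78 FPKM (-0.45, limma adjusted p = 0.445). Osmr, the oncostatin M receptor chain, was at 8.69 FPKM against 13.5, 12.3 and 9.55 FPKM (-0.39, limma adjusted p = 0.575).

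The remaining receptor chains of gp130 cytokines had small differences. Il6ra was at 3.36 FPKM against 3.85 ± 0.35 FPKM (SD, n = 3), Il11ra1 at 8.01 against 7.21 ± 0.51 FPKM, and Lifr at 7.51 against 7.44 ± 0.38 FPKM. Their differences were -0.15, 0.14 and 0.01 (limma adjusted p = 0.701, 0.696 and 0.974), that of Il6ra was -0.10 without wild type replicate 1, and that of Lifr was -0.11 with the same FPKM total and -0.02 when replicate 3 was left out. In the IL-1 receptor group, Il1rap, the co-receptor of IL-1 and IL-33, was at 1.35 against 1.67 ± 0.23 FPKM and Il1rl1, the IL-33 receptor ST2, at 1.54 against 1.24 ± 0.12 FPKM. The IL-18 receptor chains Il18r1 and Il18rap were at 4.91 against 5.95 ± 0.78 FPKM and at 2.22 against 2.61 ± 0.60 FPKM. Il1r2, a decoy receptor of neutrophils and other myeloid cells, was at 1.13 FPKM against 4.63, 1.07 and 2.98 FPKM in wild type replicates 1, 2 and 3, a wide spread that enclosed the knockout value. Tnfrsf1a, the TNF receptor found on most cells, was at 45.1 against 52.1 ± 5.70 FPKM, and Tnfrsf1b, the TNF receptor of leukocytes and endothelium, at 15.7 against 18.1 ± 1.77 FPKM. The limma adjusted p of these 7 genes lay between 0.662 and 0.824.

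Downstream of the receptors, 0 genes passed the adjusted threshold in any of the lists examined. Of 14 JAK-STAT transducers and inhibitors, 7 lay below and 3 above every wild type library, with a median difference of -0.09 (-0.21 with the same FPKM total), and 1 had an unadjusted p under 0.05, where the shares of all tested genes were 31.2%, 28.0% and 10.8%. That gene was Socs3, the feedback inhibitor that STAT3 induces, at 17.3 FPKM in the knockout kidney, against 28.2, 25.5 and 24.6 FPKM in the wild type kidneys (-0.57, SE 0.11, limma adjusted p = 0.256). Socs2, a related inhibitor of growth hormone signalling, was at 6.16 FPKM against 5.23, 4.54 and 4.18 FPKM (0.35, limma adjusted p = 0.488). Of 13 tested STAT3 and acute phase targets, 8 lay below and 0 above every wild type library, and all 13 differences were negative, with a median of -0.36 and an unadjusted p under 0.05 for 2. Of all tested genes, 31.2% lay below and 28.0% above every wild type library, 51.4% had a negative difference and 10.8% an unadjusted p under 0.05. Leaving out wild type replicate 2 moved that median to -0.19, and leaving out replicate 3 moved it to -0.54. Cebpd, a transcription factor of the acute phase response, was at 6.80 FPKM against 14.9, 13.0 and 11.6 FPKM (-0.85, SE 0.15, limma adjusted p = 0.239). Timp1, a metalloproteinase inhibitor, was at 37.3 FPKM against 94.7, 53.5 and 43.0 FPKM (-0.68, limma adjusted p = 0.662), and its difference was -0.35 without wild type replicate 1.

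The NF-kappaB transducers and targets had differences centred near 0. Of the 28 genes, 6 lay below and 11 above every wild type library, the median difference was 0.05, and 2 had an unadjusted p under 0.05, against 31.2%, 28.0% and 10.8% of all tested genes for the 3 counts. Scaling to the same FPKM total moved the median to -0.07, and it was 0.10 without wild type replicate 1 and changed sign when replicate 3 was left out (-0.02). Ptgs2, the inducible cyclooxygenase that IL-1 and TNF switch on, had the largest difference of the list, at 0.44 FPKM in the knockout kidney, against 4.58, 2.62 and 1.50 FPKM in the wild type kidneys (-1.36, SE 0.47, limma adjusted p = 0.442). Vcam1, an adhesion molecule for leukocytes, went the other way, at 54.4 FPKM against 50.3, 42.5 and 36.5 FPKM (0.34, limma adjusted p = 0.607). Among 14 genes of the inflammasome and of cytokine release, 4 lay below and 5 above every wild type library, with a median of 0.04 (-0.08 with the same FPKM total, 0.11 without wild type replicate 1, 0.01 when replicate 3 was left out), and 1 had an unadjusted p under 0.05. These counts were near the shares over all tested genes (31.2% below, 28.0% above, 10.8% at that p). Casp1, the protease that activates the precursors of IL-1 beta and IL-18, was at 3.49 FPKM against 2.74, 2.48 and 2.41 FPKM (0.34, SE 0.11, limma adjusted p = 0.431). Adam10, a membrane sheddase, was at 34.3 FPKM against 43.6, 41.4 and 37.9 FPKM (-0.25, limma adjusted p = 0.529).

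Of 7 other IL-1 family ligands and antagonists looked for, 3 had a row, and all were inside the wild type range. Il1rn, the natural IL-1 receptor antagonist, was at 3.18 FPKM against 8.15, 3.13 and 5.56 FPKM (-0.59, limma adjusted p = 0.695), and its difference was -0.32 without wild type replicate 1 and -0.89 when replicate 2 was left out.

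**Figure D4:**
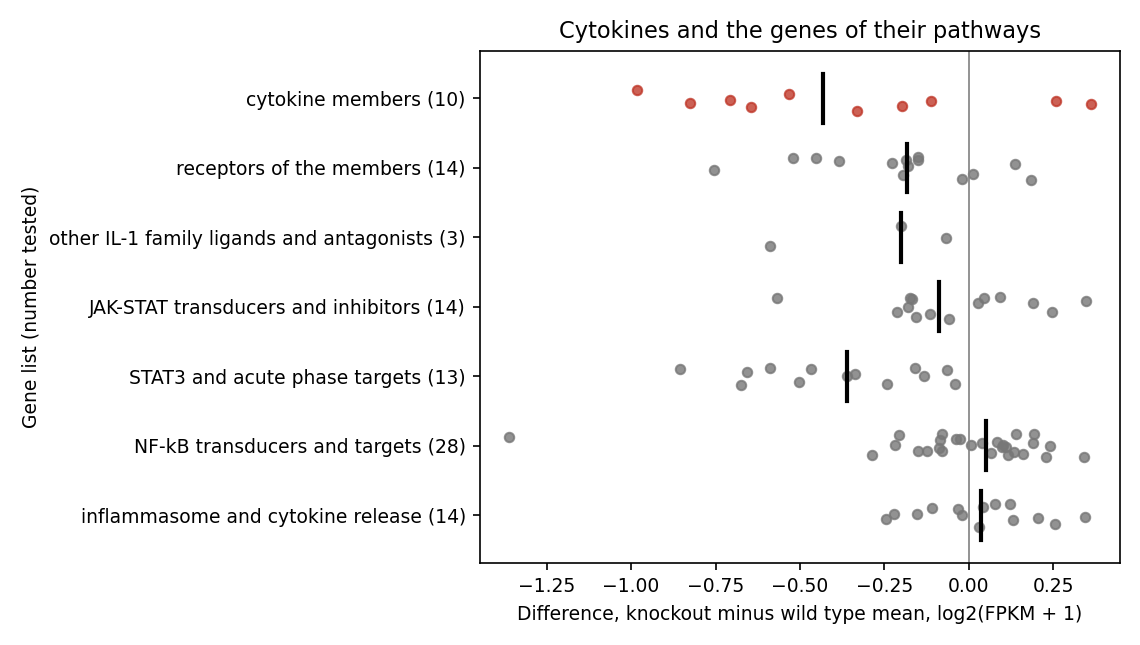
Each point is the difference of 1 tested gene between the knockout kidney and the wild type mean on the log2(FPKM + 1) scale, in 7 gene lists, and the black bar is the list median. The medians of the cytokines (-0.43) and of the STAT3 and acute phase targets (-0.36) lie furthest to the left, and those of the NF-kappaB (0.05) and inflammasome (0.04) lists lie near 0.

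Markers of the cells that could supply these cytokines differed in the same library, and their part in the results was not tested. In whole-kidney RNA, fewer cells of a type and less transcript per cell cannot be told apart. For the counts that follow, 31.2% of all tested genes lay below and 28.0% above every wild type library, 0.0830% passed limma's test as lower and 0.640% as higher. Fibroblast and myofibroblast markers summed to 372 FPKM in the knockout library and to between 771 and 963 FPKM in wild type, with 9 of 10 lower than in any wild type kidney and 2 of 10, Acta2 and Col1a1, passing limma's test as lower. Endothelial markers summed to 143 FPKM against 181 to 233 FPKM, with 8 of 8 lower than in any wild type kidney and 0 passing. Urothelium markers summed to 25.0 FPKM against 27.7 to 84.5 FPKM, with 6 of 7 below every wild type library. Macrophage and monocyte markers summed to 1284 FPKM, inside the wild type range of 896 to 1381 FPKM, with 1 of 14 below and 3 above every wild type library, and 1, Ly6c2, passing limma's test as higher. Neutrophil markers summed to 31.4 FPKM, inside a wide range of 19.3 to 82.2 FPKM whose highest value was that of wild type replicate 1, and 4 of the 10, Camp, Ly6g, Mpo and Elane, were listed at 0 in at least 1 library. Dendritic cell markers summed to 346 FPKM against 236 to 294 FPKM, with 5 of 7 above every wild type library. H2-Ab1, a gene of antigen presentation, alone gave 318 FPKM of that sum in the knockout library and 266, 232 and 214 FPKM in wild type. Mast cell markers summed to 4.80 FPKM against 3.92 to 6.05 FPKM, with 5 of 6 listed at 0 in at least 1 library. T and NK cell markers summed to 43.0 FPKM against 23.9 to 34.4 FPKM. B and plasma cell markers summed to 375 FPKM against 30.5 to 50.2 FPKM, with 5 of 8 tested passing limma's test as higher (Jchain, Pou2af1, Mzb1, Derl3 and Cd79a). Jchain alone gave 309.8 FPKM of that sum in the knockout library, against a wild type mean of 7.54 FPKM. Of the 8 tested, 7 lay above every wild type library and 1, the plasma cell marker Sdc1, lay below. Sdc1 was at 18.52 FPKM against 32.06, 23.99 and 19.24 FPKM in wild type (difference -0.39). When any 1 wild type library was left out, Acta2, Col1a1, Ly6c2, Derl3 and Cd79a no longer passed, Jchain passed only without replicate 1, Pou2af1 only without replicate 2, and Mzb1 passed each time. The calls also depended on immunoglobulin genes being in the fit. Once these were left out, Mzb1 still passed, while Acta2, Col1a1, Ly6c2, Jchain, Pou2af1, Derl3 and Cd79a did not, although their differences were unchanged. Immunoglobulin transcripts took 5.98% of all FPKM for the knockout library, against 0.202%, 0.164% and 0.113% for wild type replicates 1, 2 and 3. Markers of distal nephron and collecting duct (632 FPKM) and of podocytes (113 FPKM) summed to values inside the wild type range. Immediate early and heat shock genes, which respond to handling and stress, had negative differences in 14 of 14 cases, with a median of -0.55 and 12 below every wild type library.

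In the authors' deposited table, 0.781% of all genes were marked as significant, and 0 of the 10 cytokines were among them. The marked genes had absolute log2 fold changes of at least 1 and q-values of at most 0.05. Il33, with a q-value of 0.03, fell short of that fold change at -0.75. After Il33, the lowest q-values in the authors' deposited table were 0.08 for Il1b, with a log2 fold change of -1.15, and 0.17 for Il11, with -1.78. The log2 fold change of Il6 there was -2.14 with a q-value of 0.42.

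Without wild type replicate 1 the differences of Il1b, Il11, Lif, Il33, Csf1 and Tnf were smaller in size and that of Osm changed sign, while without replicate 3 those of Il1b, Il11, Lif, Il33 and Osm were larger in size. Il18 stayed between 0.32 and 0.39 and Il34 between 0.18 and 0.32 over the 3 fits.

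**Figure D5:**
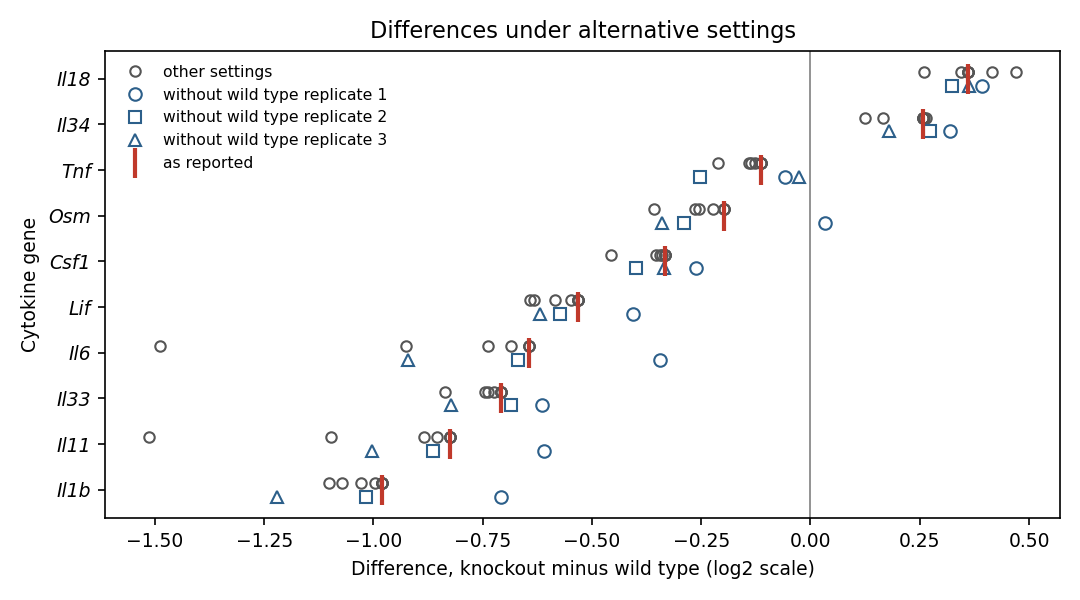
For each cytokine gene the red bar is the difference as reported, open blue symbols are the differences without wild type replicate 1, 2 or 3, and grey circles those under other settings such as another pseudocount or scaling. Symbols stay on 1 side of 0 for every gene but Osm, which lies at 0.03 without wild type replicate 1, and the widest spreads, for Il6 and Il11, come from the pseudocount of 0.1 FPKM.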

How the data were processed

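Messenger RNA of obstructed mouse kidneys was sequenced. RNA was extracted with Trizol and selected on oligo(dT) beads, per the labels' protocols. The tools cutadapt 1.9, FastQC and HISAT2 2.0.4 and the build mm10 are named, without roles, per the submitters' processing notes. The authors deposited FPKM values rounded to 2 decimals. No source used here names the program that made them. The deposited fold change is a ratio of the knockout FPKM to the wild type mean, and the deposited log2 values are its log2. The authors' own p-value and q-value columns come from a test that no source used here names.

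Values were analysed as log2(FPKM + 1) with limma 3.58.1 in R 4.3.3, with a mean-variance trend and two-sided tests. All genes that averaged 0.5 FPKM or more across the 4 libraries entered the fit, and p-values were adjusted over these 16871 genes by the Benjamini-Hochberg method. The fit had 2 residual degrees of freedom, all from wild type, so the fit takes the knockout library to be as variable as wild type. The comparison had been planned with all libraries of both groups that had values. Steps of whole reads were looked for in low FPKM values of single-transcript genes and not found, so depth is unknown and no counting intervals were computed. The fit was also run on simulated data. Only genes above a set level were changed there, by more than the difference of any cytokine here. That run therefore does not show how well differences of this size, or low genes such as Il6, Il11 and Osm, are recovered. Coordinates come from GENCODE M21 (GRCm38), matched by gene ID, and start-site windows from RefSeq (GRCm38.p6). The cytokines and gene lists were chosen with earlier results of these data known. Of the receptors all are named; of other pathway lists, every gene past the test and otherwise the 2 largest differences with a mean of at least 1 FPKM and the knockout value outside the wild type range. Il1rn and the summed ligands were chosen after their values were seen. Groups and replicate numbers came from the sample titles.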

Additional observations from a re-analysis of the deposited data

How the results depend on the processing

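Of 10 cytokines, 0 passed limma's test under each of the 11 alternative settings, and adjusted p-values ranged from 0.276 (Il33, quantile normalization) to 0.972 (Tnf, without wild type replicate 3). Directions of 9 cytokines were the same in every alternative that gave a value, and Osm ranged from -0.34 to 0.033 when 1 wild type library was left out, with the positive value without replicate 1. Il6 gave no value without that replicate or with a mean of at least 1 FPKM, and Osm none with the latter. Among receptors, Lifr turned to -0.11 with the same FPKM total, to -0.00052 with quantile normalization, and ranged from -0.016 (without wild type replicate 3) to 0.047 when 1 wild type library was left out. Csf1r ranged from -0.10 to 0.038, and was positive without replicate 1 (0.038) and without replicate 3 (0.0042). Scaling to the same FPKM total shifted the median of all tested genes to -0.11, and Il34 and Il18 were then at 0.13 and 0.26.

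Over all genes, 122 passed, 14 lower and 108 higher. The counts were 39 (6 lower, 33 higher) with a pseudocount of 0.1 FPKM, 205 (4 lower, 201 higher) with no filter, 2 (1 lower, 1 higher) without immunoglobulin genes, and 24 lower with the same FPKM total. Without 1 wild type library they ranged from 45 to 73, with 1 to 4 lower and 41 to 72 higher. No paired analysis was possible because the groups share only replicate number 1 in the table, so the planned replicate block was not run, nor was leaving out a knockout library. With 1 knockout library and unknown depth, the wide intervals of Il6, Il11 and Osm limit what can be resolved.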

Other observations

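Ratios between related transcripts within a library set some of the same values side by side. They were chosen after the values were seen, carry no test and are given as descriptions. Il33 was 4.74 times as abundant as Il18 in the knockout kidney, against 11.9, 12.3 and 9.36 times in wild type replicates 1, 2 and 3, so the knockout ratio lay below all wild type ratios. The ratio of Il33 to Il1rl1, its receptor, was 10.4 in the knockout kidney, against 22.9, 21.6 and 20.4 in wild type, again with no overlap. The ratio of Il18 to Il18bp, which encodes the soluble IL-18 binding protein, was 1.07 in the knockout kidney, against 0.656, 0.671 and 0.849 in wild type, with the knockout library the highest. In contrast, the ratio of Il1b to its antagonist Il1rn was 2.05 in the knockout kidney, against 2.54, 4.20 and 1.73 in the wild type kidneys, inside the wild type range. All 10 cytokines together summed to 88.2 FPKM in the knockout kidney, against 126.0, 104.0 and 92.3 FPKM in wild type, and Il34 made up 48.0% of that sum in the knockout library against 30.5%, 34.7% and 34.1% in wild type.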
